A study of Mus musculus with 2 samples.

Results

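Kitl, Il7 and their receptors Kit and Il7r were followed across the cell classes of Cxcl12-GFP+ femur cells from 2 mice. The 4 genes were taken by symbol from the 28006 features of the single-cell count matrices, and all 4 passed the filter on low counts. Reticular-like cells carried the highest levels of both ligands. Arterial endothelial-like cells carried Kitl with almost no Il7. Il7r lay in B cell-like clusters and in a small plasmacytoid dendritic-like cluster. Among these sorted cells, Kit was low in every class. It was highest in sinusoidal endothelial-like cells, only 28 in each mouse, rather than in a blood class.

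Kitl encodes stem cell factor, which binds the receptor tyrosine kinase Kit on hematopoietic stem and progenitor cells, mast cells and melanocytes. It is made as a membrane protein, and alternative splicing decides whether the main site at which proteases cut it free is present. Il7 encodes interleukin-7, which signals through a receptor made of Il7r and the common gamma chain Il2rg, and developing B cells of the mouse marrow depend on it. In bone marrow, perivascular reticular cells that express Cxcl12 and Lepr are known sources of both ligands, and endothelial cells are a further known source of stem cell factor.

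Each library held cells from the femurs of 1 Cxcl12(GFP/+); Cxcl12-iCreER; R26R(tdTomato/+) mouse at postnatal day 28, after tamoxifen at day 21, with about 18000 cells loaded on a 10x Genomics Chromium chip with 3' v3 chemistry. Both mice carried the same alleles and treatment, so the design has 1 group and the comparisons were between cell classes. The Cxcl12-iCreER transgene recombines the reporter in a subset of Cxcl12-expressing cells, and 1 Cxcl12 allele is replaced by GFP. The labels name the cells as GFP+, and the paper states that cells of these mice were sorted by a GFP-high gate. The extraction text names tdTomato+ cells instead. Only 39.0% and 38.4% of reticular-like cells in Mouse #1 and Mouse #2 scored as tdTomato-positive here.

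The libraries held 54940400 and 88790688 UMIs, counts of distinct captured molecules. Keeping barcodes that had 1000 genes or more, with mitochondrial UMIs at 15% or less, gave 2750 and 4582 cells, 7332 in all, with median depths of 12966.5 and 12190 UMIs, and 7 barcodes occurred in both libraries. Clustering without the 4 genes and without the pathway lists gave 19 clusters, which fell into 5463 stromal, 290 endothelial, 1425 blood and 154 unnamed cells. A class was called "-like" from listed markers that it raised. The reticular-like class, 1312 and 2567 cells, raised 8 of 8 of its markers, among them Adipoq, Lpl and Gas6. The unnamed cells formed a cycling cluster that raised 6 of 8 preosteoblast markers. No cluster took the name of stem and progenitor cells, the main known site of Kit in marrow. The paper describes blood clusters without GFP as contamination of the sorted cells. Shares of UMIs by class therefore describe the cells that passed the sort and not whole marrow. Levels are given as CPM, UMIs of a gene per 1000000 UMIs summed over the cells of a class in 1 mouse, in the order Mouse #1 and Mouse #2.

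The genes lie on 4 chromosomes of the mouse build GRCm38 (mm10) and are all protein-coding. Kitl spans chr10:100015630-100100416 on the plus strand and Kit spans chr5:75574916-75656722 on the plus strand. Il7 spans chr3:7569994-7613760 on the minus strand and Il7r spans chr15:9505788-9530176, also on the minus strand. Il7 is the only 1 of the 4 that overlaps another annotated gene, the antisense transcript Gm16685. The 3' chemistry records strand, and Gm16685 had its own counts, at 73.4 and 111.6 CPM in reticular-like cells.

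The sequence that separates the 2 main forms of stem cell factor is an internal exon, number 6 of transcript Kitl-202, which Kitl-201 skips. It is shown because the proteases described later act on the stretch it encodes. It covers chr10:100080857-100080940, 84 bases on the plus strand, as given by the GENCODE transcripts of GRCm38:
Kitl exon 6: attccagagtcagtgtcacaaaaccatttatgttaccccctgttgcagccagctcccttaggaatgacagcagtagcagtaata
Counting from the 3' end of transcripts does not tell the 2 forms apart, so each Kitl level below is the sum of both.

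Kitl, the ligand of Kit, stood at 1164.5 CPM in reticular-like cells of Mouse #1 and 1249.6 CPM in those of Mouse #2 (1207 ± 60.2, SD, n = 2). These cells held 81.8% and 85.6% of all Kitl UMIs of the sorted cells. The median reticular-like cell carried 12 Kitl UMIs in either mouse. The next class was arterial endothelial-like, at 616.8 and 538.3 CPM (578 ± 55.5, SD, n = 2). Preosteoblast-like cells followed at 315.2 and 259.0 CPM, and the cycling cluster at 201.4 and 213.4 CPM. The ranges of these 4 classes did not overlap. Below them the order was not resolved. Sinusoidal endothelial-like cells gave 75.9 and 328.8 CPM and overlapped the cycling cluster, and from there each class down to granulocyte progenitor-like cells overlapped its neighbour. Osteoblast-like cells, only 14 in Mouse #1, had 13.4 and 37.0 CPM, below the preosteoblast-like cells in both mice.

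Il7, the ligand of Il7r, stood at 144.3 and 149.7 CPM in reticular-like cells (147 ± 3.8, SD, n = 2), which held 79.0% and 83.6% of its UMIs. Preosteoblast-like cells came next at 62.0 and 41.4 CPM. The cycling cluster had 37.3 and 36.8 CPM and periosteal-like cells had 20.9 and 38.6 CPM, with overlapping ranges. Arterial endothelial-like cells had 1.32 and 6.59 CPM, from 2 and 10 UMIs. The stromal classes and the arterial class therefore held the ligands in different proportions. Kitl UMIs per Il7 UMI were 8.07 and 8.35 in reticular-like cells, 5.08 and 6.26 in preosteoblast-like cells, and 468 and 81.7 in arterial endothelial-like cells.

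**Figure D1:**
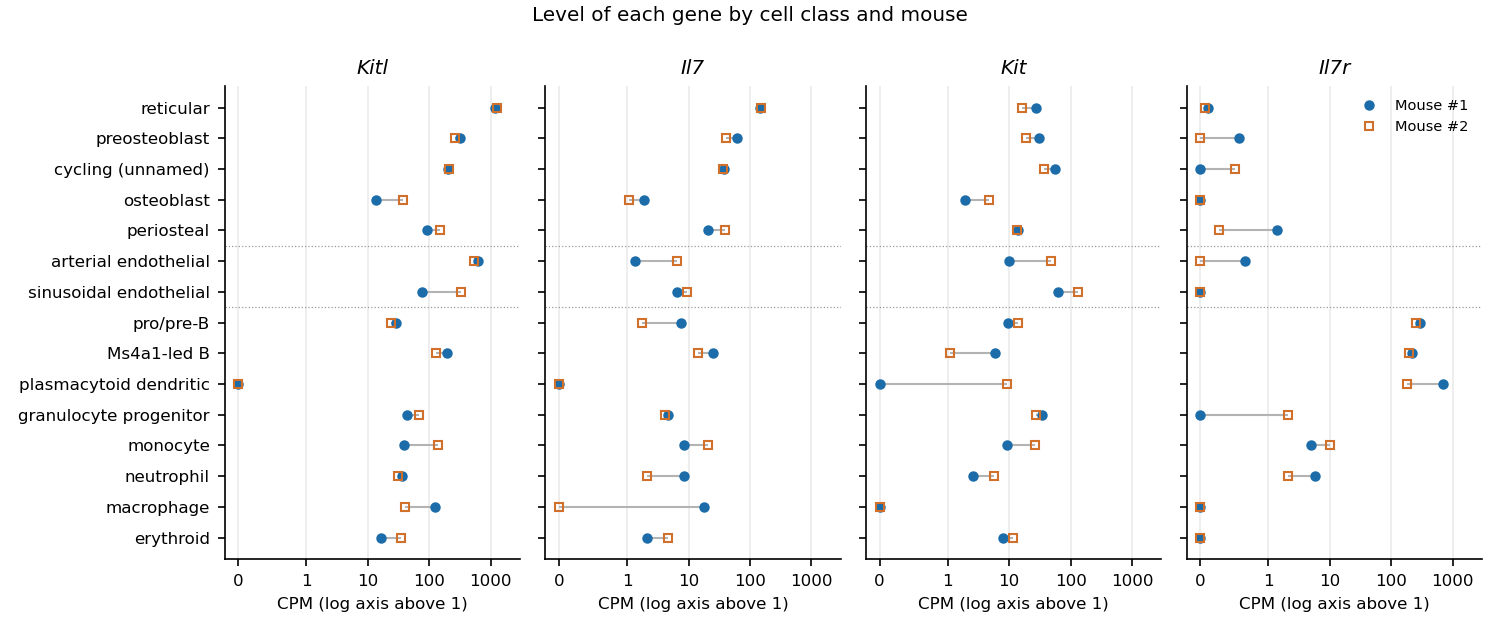
Level of Kitl, Il7, Kit and Il7r (CPM, log axis above 1) in 15 classes, with a filled circle for Mouse #1, an open square for Mouse #2 and a line joining the mice. Dotted lines part stromal, endothelial and blood classes; Kitl and Il7 peak in reticular cells at 1164.5 and 1249.6 and at 144.3 and 149.7 CPM, and Il7r lies in B cell and plasmacytoid dendritic clusters.

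Free RNA was read from barcodes with at most 100 UMIs, too few for a cell. Its composition, which is not a level reached in each class, was Kitl at 499.98 and 580.7 CPM, Il7 at 54.4 and 59.3, Kit at 28.2 and 21.9, and Il7r at 4.85 and 3.76. Blood classes together had Kitl at 6.42 and 9.09 UMIs per Il7 UMI, and free RNA had 9.20 and 9.80. The 16 plasmacytoid dendritic-like cells had 0 UMIs of either ligand, which allows up to 45.4 and 27.4 CPM, since 0 counts were read as up to 3. In the arterial class the ratio lay far above that of free RNA. In the sinusoidal class it was 11.7 in Mouse #1 and 35.3 in Mouse #2, from 3 and 4 Il7 UMIs. Intervals and floors here cover counting error only.

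To compare the share of cells with a UMI at equal depth, every cell was thinned to 2000 UMIs, which left out 6 and 21 cells below that depth. Kitl was then found in 83.0% (Wilson 95% interval 80.9 to 85.0) and 85.6% (84.2 to 86.9) of reticular-like cells. It was found in 62.9% and 58.2% of arterial endothelial-like, 40.0% and 32.9% of preosteoblast-like, and 15.2% and 20.6% of periosteal-like cells. Blood classes, which should lack it, gave 4.90% and 6.93%. Il7 was found in 23.6% and 23.5% of reticular-like cells and 12.2% and 8.70% of preosteoblast-like cells, against 0.839% and 0.566% of blood cells. Without thinning, the mean shares in reticular-like cells were 97.5% for Kitl and 66.5% for Il7.

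Reticular-like cells with Il7 mostly carried Kitl as well. Of the thinned cells, 20.7% and 20.1% had both ligands, 62.3% and 65.5% had Kitl without Il7, and 2.91% and 3.33% had Il7 without Kitl. Shares multiplied as if the 2 ligands were independent came to 19.6% and 20.1%, so detection of 1 ligand went with that of the other no more than its share implied in Mouse #2 and slightly more in Mouse #1. In preosteoblast-like cells both ligands were seen in 6.59% and 4.86%, against products of 4.88% and 2.86%.

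**Figure D2:**
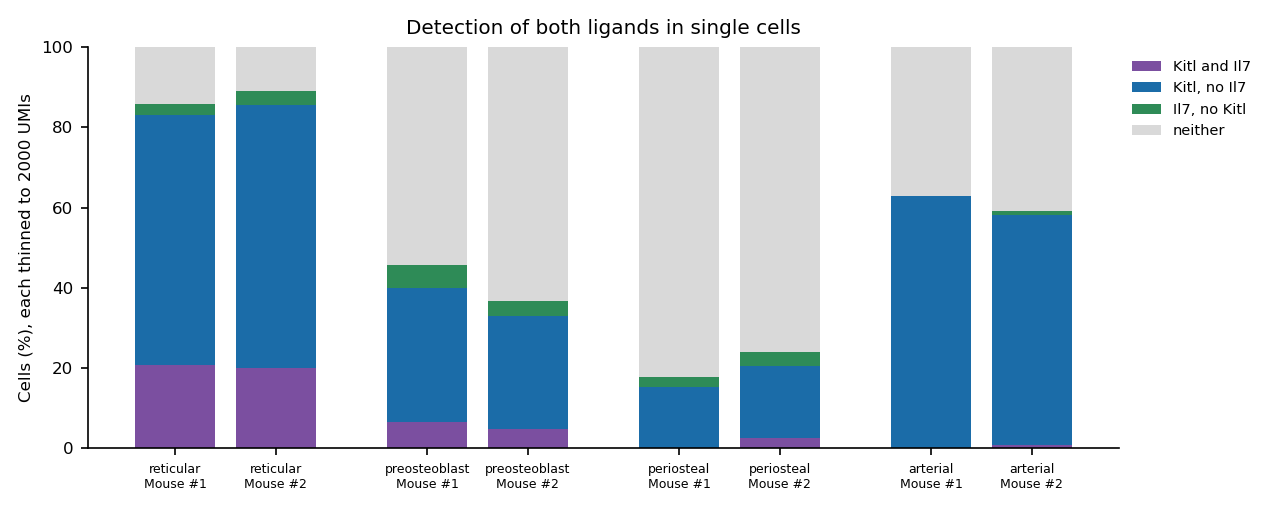
Share of cells (%, thinned to 2000 UMIs) with Kitl and Il7, either alone or neither, as stacked bars for each mouse in 4 classes. Cells with both ligands make up 20.7% and 20.1% of reticular-like cells, and arterial endothelial-like cells hold Kitl with at most 1 cell that has both.

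The first comparison asked whether reticular-like cells differ from the other stromal classes. Sums per mouse and class were tested with edgeR's quasi-likelihood test over 12 classes and 12536 genes, with Benjamini-Hochberg adjustment, and a call is an adjusted p below 0.05. Reticular-like cells exceeded preosteoblast-like cells 4.49-fold in Kitl (log2 difference 2.17, SE 0.53, edgeR adjusted p = 0.0093). They exceeded them 3.05-fold in Il7 (log2 difference 1.61, SE 0.37, edgeR adjusted p = 0.0058). Of all genes, 14.7% were called in that comparison. Both genes were higher in reticular-like cells of either mouse, by 1.89 and 2.27 on the log2 scale for Kitl and by 1.22 and 1.86 for Il7. Here and below, values of single mice are ratios of CPM, while edgeR also scales the sums (TMM). An edgeR value can therefore lie outside those of both mice. With DESeq2 the Il7 difference of 1.54 no longer passed (DESeq2 adjusted p = 0.090).

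Against periosteal-like cells, fibroblast-like cells of the outer bone surface, the gaps were wider. Kitl was 9.94-fold higher in reticular-like cells (log2 difference 3.31, SE 0.56, edgeR adjusted p = 0.00053) and Il7 was 4.73-fold higher (2.24, SE 0.41, edgeR adjusted p = 0.00096). Here 13.9% of all genes were called. The comparison of preosteoblast-like with osteoblast-like cells could not be fitted, because fewer than 20 osteoblast-like cells came from Mouse #1.

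The endothelial comparisons separated the 2 ligands. Il7 was higher in reticular-like than in arterial endothelial-like cells by 5.36 on the log2 scale (SE 0.58, edgeR adjusted p = 8.3e-07), by 6.77 in Mouse #1 and 4.51 in Mouse #2 on 2 and 10 arterial UMIs. The Kitl difference of 1.21 on the log2 scale (SE 0.52), 0.92 and 1.22 in the 2 mice, missed the threshold (edgeR adjusted p = 0.072). It passed in 4 of 8 alternatives, with adjusted p from 1.2e-06 to 0.15 over all of them. The lowest came with no filter on low counts, where other differences also had far smaller adjusted p. In this comparison 40.3% of all genes were called. Against sinusoidal endothelial-like cells, both ligands were higher in reticular-like cells, Kitl by 2.87 (SE 0.57, edgeR adjusted p = 0.00089) and Il7 by 4.51 (SE 0.68, edgeR adjusted p = 6.5e-05) on the log2 scale, where 33.7% of genes were called. The Kitl difference was 3.94 in Mouse #1 and 1.93 in Mouse #2, and that of Il7 was 4.47 and 4.004. The ligand comparisons with reticular-like cells share the same reticular sums.

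Between the endothelial classes, Kitl was 3.14-fold higher in arterial than in sinusoidal cells (log2 difference 1.65, SE 0.55, edgeR adjusted p = 0.046), where 18.0% of genes were called. This value depended on few cells. The 28 sinusoidal endothelial-like cells of Mouse #2 held 141 Kitl UMIs, of which 1 cell carried 66, and without that cell their level was 189.6 CPM in place of 328.8. Reticular markers summed to 1850 and 3435 CPM in the sinusoidal class and to 468 and 602 CPM in the arterial class, and their part in the Kitl level was not tested. The log2 difference was 3.02 in Mouse #1 and 0.71 in Mouse #2. It lost its call in 4 alternatives, with adjusted p of 0.098 to 0.12. Il7 did not differ detectably between the endothelial classes, at 2 and 10 UMIs in arterial and 3 and 4 in sinusoidal cells (log2 difference -0.85, SE 1.17, edgeR adjusted p = 0.69).

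**Figure D3:**
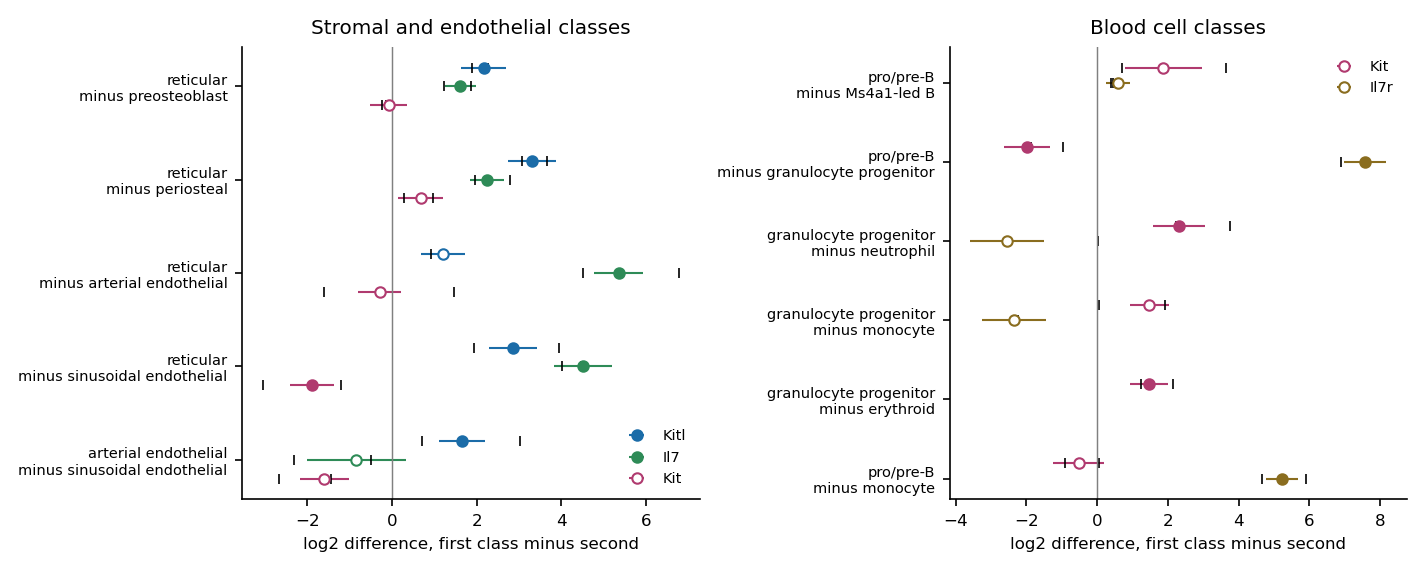
Log2 difference between classes, first minus second, for Kitl, Il7 and Kit in stromal and endothelial classes and for Kit and Il7r in blood classes. Circles with bars give the edgeR value and its SE, filled where the adjusted p is below 0.05, and ticks give each mouse where both classes had UMIs; Il7 is higher in reticular cells by 5.36 against arterial cells and Kitl by 1.21, an open circle.

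Within the reticular-like class the ligands varied by cluster. The 4 clusters, numbered 0, 2, 3 and 13, held 753, 195, 321 and 43 cells in Mouse #1 and 1352, 678, 491 and 46 in Mouse #2. Clusters 0, 2 and 3 had Kitl between 1107 and 1347 CPM in both mice. Cluster 13, led by the chemokine gene Cxcl9 and the shallowest at a median of 3572 UMIs, had less, at 647 and 726 CPM. Il7 did not follow this pattern, with 155 and 174 CPM in cluster 13, 172 and 168 in cluster 3, and 135 and 142 in cluster 0. These clusters are a description and were not tested against each other.

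The other niche factors, secreted or membrane signals for blood cells, were compared in the same fit. Of 15 listed, 13 were tested, and Il11 and Thpo were too low. Against preosteoblast-like cells 7 of 13 were higher in reticular-like cells and 0 lower, with a median log2 difference of 1.84 beside 0.02 over all genes, of which 14.7% were called. Those with the largest differences were Il34, a second ligand of the macrophage receptor Csf1r (119.4 and 152.1 against 9.18 and 12.7 CPM, log2 difference 3.70), Il15, a factor for natural killer cells (2.24), the adhesion molecule Vcam1 (2.11) and Bmp4 (2.02). Cxcl12, at 8918 and 8967 CPM in reticular-like cells, was 1.84 higher (edgeR adjusted p = 0.015), and GFP from its locus is the sort marker that the labels name.

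Against periosteal-like cells 6 of 13 niche factors were higher in reticular-like cells and 1 was lower, with a median of 1.42 beside 0.08 over all genes, of which 13.9% were called. The lower 1 was Il6, an inflammatory cytokine, which had 20.9 and 16.5 CPM among reticular-like cells but 125.3 and 146.6 CPM among periosteal-like cells (log2 difference -2.86). Il34 (3.30), Bmp4 (3.13) and Il15 (2.59) were higher in reticular-like cells. Against arterial endothelial-like cells 11 of 13 were higher, led by Angpt1, the ligand of the endothelial receptor Tek (248.6 and 232.2 against 2.64 and 2.64 CPM, log2 difference 6.64), Il34 (6.01), Lif (5.39) and Igf1 (4.78). The median was 3.62 beside 0.09 over all genes, of which 40.3% were called. Against sinusoidal endothelial-like cells 10 of 13 were higher, with a median of 2.69 beside 0.52 over all genes (33.7% called), led by Il34 (3.88), Lif (3.85), Angpt1 (3.07) and Il15 (2.82).

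Between the endothelial classes 3 of 13 niche factors were called, where 18.0% of all genes were. Angpt1 (-3.57), Igf1 (-2.74) and Vcam1 (-2.22) were lower in arterial than in sinusoidal cells, and 0 of 13 were higher by edgeR, with a median of -1.11 beside 0.26 over all genes. Vcam1 stood at 81.1 and 127.8 CPM in arterial and 481.4 and 592.3 CPM in sinusoidal cells.

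**Figure D4:**
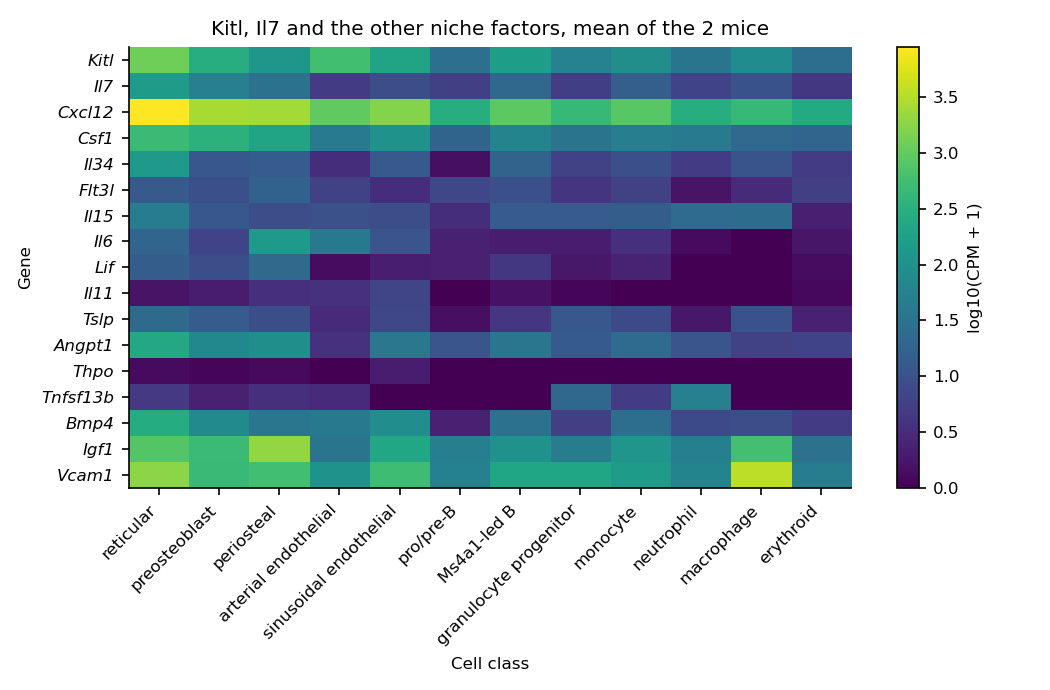
Level of Kitl, Il7 and 15 other niche factors, as log10(CPM + 1) of the mean of the 2 mice, in the 12 tested classes, with brighter cells for higher levels. The reticular column is brightest for Kitl, Il7, Cxcl12, Csf1, Il34 and Angpt1, and Kitl stands out in the arterial column, where Il7 has 1.32 and 6.59 CPM.

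Among 4 proteases that can free membrane-bound stem cell factor, 1 was called against preosteoblast-like cells, where 14.7% of all genes were. Mmp9, a secreted gelatinase, was low in reticular-like cells at 10.5 and 6.92 CPM and higher in preosteoblast-like cells at 201.4 and 172.6 CPM (log2 difference -4.34, SE 0.53, edgeR adjusted p = 2.9e-05). It was highest in neutrophil-like cells, at 1899 and 1524 CPM. The membrane protease Mmp14 was found at 263.3 and 260.5 CPM in reticular-like cells and was higher there than in arterial endothelial-like cells (1.55, edgeR adjusted p = 0.0080), where 40.3% of all genes were called. The sheddase Adam10 was lower in reticular-like than in arterial cells (67.5 and 65.2 against 234.2 and 241.8 CPM, log2 difference -1.69). It was also lower than in sinusoidal cells (-1.02), where 33.7% of all genes were called. Between the endothelial classes, where 18.0% were called, Adam10 was 0.67 higher in arterial cells (edgeR adjusted p = 0.014). Adam17 stood at 52.9 and 48.2 CPM in reticular-like cells. It was called in none of the 5 comparisons by edgeR, in which 13.9% to 40.3% of all genes were.

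Kit, the receptor for stem cell factor, was highest in sinusoidal endothelial-like cells, at 62.9 and 132.9 CPM from 29 and 57 UMIs. This level rested on few cells. The 3 and 5 sinusoidal cells with 5 or more Kit UMIs held 17 of the 29 and 43 of the 57. The cycling cluster followed at 56.5 and 36.3 CPM and granulocyte progenitor-like cells at 34.5 and 26.9 CPM, and the ranges of these 3 classes did not overlap. In the cycling cluster 1 cell held 33 of 94 Kit UMIs in Mouse #1 and 1 held 19 of 72 in Mouse #2. Without those cells it stood at 37.9 and 27.1 CPM, which overlaps the granulocyte progenitor range. From granulocyte progenitor-like to erythroid-like cells, at 7.82 and 11.3 CPM, each class overlapped the next. At 2000 UMIs a cell, Kit was found in 17.9% and 7.14% of the 28 sinusoidal cells of each mouse, and in 6.82% and 5.17% of granulocyte progenitor-like cells. Macrophage-like cells had 0 Kit UMIs in both mice, which allows up to 6.04 and 9.30 CPM, and all stromal cells together gave shares of 3.81% and 2.59%.

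These Kit comparisons among stromal and endothelial classes were added after its values were seen. Kit was 3.69-fold lower in reticular-like than in sinusoidal endothelial-like cells (log2 difference -1.88, SE 0.52, edgeR adjusted p = 0.011), and lower in both mice, by -1.20 and -3.04. Arterial minus sinusoidal gave -1.60 (SE 0.57) and missed the threshold (edgeR adjusted p = 0.065). Arterial endothelial-like cells differed between the mice, at 9.90 and 48.8 CPM. Reticular-like and preosteoblast-like cells, at 27.5 and 16.1 and at 30.5 and 18.8 CPM, did not differ detectably (-0.08, SE 0.44, edgeR adjusted p = 0.96).

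Because reticular-like cells were numerous after the sort, they held 45.2% and 40.8% of its Kit UMIs, against 17.6% and 15.5% for all blood cells. These UMIs were unevenly spread. The 21 and 18 reticular-like cells with 5 or more Kit UMIs held 36.5% and 24.8% of the class total. Their summed reticular markers were 18130 and 17340 CPM, beside 17280 and 14900 in the other cells of the class, and their summed granulocyte progenitor markers were 21.9 and 22.8 CPM, beside 23840 and 18640 in granulocyte progenitor-like cells. They were deeper, with medians of 20698 and 18424 UMIs against 12017 and 11150. Summed megakaryocyte markers were 6.57 and 45.6 CPM in them against 6.42 and 10.02 in the others, and the part of depth and of these markers was not tested. Cluster 3 had more Kit than the other reticular clusters, at 62.7 and 34.0 CPM, against 18.1 and 13.9 in cluster 0 and 22.6 and 10.3 in cluster 2.

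In blood cells, Kit was compared between progenitor and mature classes. Granulocyte progenitor-like cells had 4.96-fold more Kit than neutrophil-like cells, which held 4 and 11 Kit UMIs (log2 difference 2.31, SE 0.73, edgeR adjusted p = 0.016), where 43.4% of genes were called. They had 2.78-fold more than erythroid-like cells (1.47, SE 0.55, edgeR adjusted p = 0.038), where 42.0% were called, and the call was lost with DESeq2 (DESeq2 adjusted p = 0.083). Against monocyte-like cells the difference of 1.47 (SE 0.55) missed the threshold (edgeR adjusted p = 0.080), with 17.0% of genes called, and it was 1.93 in Mouse #1 but 0.06 in Mouse #2. Pro/pre-B-like cells had less Kit than granulocyte progenitor-like cells (log2 difference -1.99, SE 0.65, edgeR adjusted p = 0.030), where 27.9% of genes were called. Kit in pro/pre-B-like cells came from 10 and 16 UMIs, of which 1 cell of Mouse #2 held 13.

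Il7r marked the B cell-like clusters. Pro/pre-B-like cells, 47 and 48 cells that raised Vpreb1, Igll1, Dntt and Rag1, had 295.7 and 252.1 CPM (274 ± 30.9, SD, n = 2). A cluster of 187 and 189 cells led by Ms4a1, the B cell antigen CD20, and named mature B from its markers had 216.3 and 193.5 CPM (205 ± 16.1, SD, n = 2). Thinned shares were 44.7% and 50% in the first and 29.9% and 25.1% in the second, against 0.0552% and 0.0% of stromal cells. The plasmacytoid dendritic-like cluster, with only 6 and 10 cells, had 696.2 CPM (exact Poisson 95% interval 510 to 929) and 182.5 CPM (111 to 282) from 46 and 20 UMIs. Reticular-like cells had 2 Il7r UMIs in each mouse, 0.120 and 0.0650 CPM.

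The difference between the B cell-like clusters was small. Il7r was 0.59 higher on the log2 scale in pro/pre-B-like than in Ms4a1-led cells (SE 0.35, edgeR adjusted p = 0.25), where 22.3% of genes were called. In CPM without the edgeR scaling it was higher in both mice, by 0.45 and 0.38. In a fit of these 2 classes alone the difference of 0.55 passed (edgeR adjusted p = 0.027). The Ms4a1-led cluster was not uniform. At the finer clustering resolution of 1.0, 337 of its cells took the pro/pre-B name and kept Il7r at 243.3 and 218.9 CPM, with Rag1, a recombinase gene of immature lymphocytes, at 200.7 and 162.9 CPM. Their other markers went both ways. Vpreb3 stood at 3157 and 3079 CPM, but Igll1 only at 20.7 and 2.49 CPM (19 and 2 UMIs), and Ms4a1 at 465.8 and 968.8 CPM. The other 39 cells, 20 and 19 per mouse, kept the mature B name, had Fcer2a, a gene of mature B cells, at 332.1 and 283.9 CPM, and had 0 Il7r UMIs in both mice, which allows up to 26.2 and 28.4 CPM. This split was looked at after the values were seen and was not tested.

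Myeloid classes had little Il7r. Pro/pre-B-like cells exceeded granulocyte progenitor-like cells by 7.58 on the log2 scale (SE 0.60, edgeR adjusted p = 2.6e-07). The latter had 0 and 5 UMIs, so that the difference was at least 8.24 in Mouse #1, with 0 counts read as 3, and 6.91 in Mouse #2. They exceeded monocyte-like cells by 5.23 (SE 0.46, edgeR adjusted p = 1.5e-06), where 28.8% of genes were called. Kit, in contrast, did not differ detectably between pro/pre-B-like and monocyte-like cells (-0.52, SE 0.72, edgeR adjusted p = 0.63), nor between pro/pre-B-like and Ms4a1-led cells (1.88, SE 1.09, edgeR adjusted p = 0.25). Granulocyte progenitor minus neutrophil gave -2.54 for Il7r (SE 1.05, edgeR adjusted p = 0.064), on 0 and 5 against 9 and 4 UMIs, and the 9 came from 1 cell. Granulocyte progenitor minus monocyte gave -2.35 (SE 0.90, edgeR adjusted p = 0.091). Erythroid-like cells had 0 Il7r UMIs, so no fold is given.

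The partners of Il7r were not arranged as the receptor was. Il2rg, the common gamma chain, stood at 20.9 and 12.95 CPM in pro/pre-B-like and 125.1 and 124.2 CPM in Ms4a1-led cells (log2 difference -2.72, SE 0.32, edgeR adjusted p = 7.5e-06). It was also found in endothelial classes, at 51.5 and 64.6 CPM in arterial and 112.8 and 146.9 CPM in sinusoidal cells. Crlf2, the partner of Il7r in the receptor for thymic stromal lymphopoietin, was 0.14 lower in pro/pre-B-like than in Ms4a1-led cells, which did not pass (edgeR adjusted p = 0.82). Its ligand gene Tslp stood at 17.8 and 26.4 CPM in reticular-like cells.

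The 17 listed genes of the IL-7 receptor pathway were all tested. Between pro/pre-B-like and Ms4a1-led cells 0 were higher and 6 lower in the former by edgeR, with a median log2 difference of -0.60 beside -0.01 over all genes, of which 22.3% were called. Besides Il2rg these included the survival genes Mcl1 (-1.43) and Bcl2 (-1.38) and the feedback inhibitor Socs1 (-1.24). Against granulocyte progenitor-like cells 5 were higher and 2 lower, where 27.9% of all genes were called (median 0.14 beside -0.02). The higher ones were led by Pax5, a B cell identity factor (210.1 and 189.9 against 0.0 and 2.10 CPM, log2 difference 7.13), Ebf1 (4.19), Foxo1 (2.96) and Socs1 (1.78). Crlf2 (-1.003) was lower, at 33.3 and 40.6 against 54.0 and 43.8 CPM, a smaller gap before scaling. Against monocyte-like cells 5 were higher and 4 lower (28.8% of all genes called, median -0.09 beside -0.11), with Pax5 (5.86), Ebf1 (3.18) and Foxo1 (2.11) higher and Bcl2 (-2.22) lower. Pax5, Ebf1 and Foxo1 are transcription factors of the B lineage. Granulocyte progenitor-like cells had 10 of 17 lower and 0 higher by edgeR than neutrophil-like cells (43.4% of all genes called, median -0.97 beside 0.04), among them Pax5 (-3.83), Stat5b (-2.21), Mcl1 (-2.18) and Pik3cd (-2.02). These values include the edgeR scaling, and not every call shows as a gap in CPM. Akt1 was called lower (-0.62) at 53.65 and 66.48 against 66.24 and 59.99 CPM. Pik3r1 was called lower (-0.71) at 40.97 and 43.34 against 41.4 and 52.75 CPM. Granulocyte progenitor-like cells had 2 lower and 0 higher by edgeR than monocyte-like cells (17.0% of all genes called, median -0.38 beside -0.05), Bcl2 (-2.18) and Stat5b (-0.75). They had 7 higher and 1 lower than erythroid-like cells (42.0% of all genes called, median 0.91 beside 0.02), led by Pik3cd (4.97), Jak3 (3.57), Crlf2 (3.25) and Il2rg (2.43).

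The 17 listed genes of the KIT pathway, adaptors, phosphatases and hematopoietic transcription factors, were all tested. Against neutrophil-like cells, granulocyte progenitor-like cells had 1 of 17 higher and 7 lower, where 43.4% of all genes were called, with a median log2 difference of -0.36 beside 0.04 over all genes. The higher 1 was Myb, a progenitor transcription factor (127.5 and 110.2 against 11.5 and 14.5 CPM, log2 difference 2.64), and the lower ones included the kinase Lyn (-2.11), Mitf (-1.85) and the adaptor Gab2 (-1.76). Against erythroid-like cells 7 were higher and 3 lower (42.0% of all genes called, median 0.85 beside 0.02). Gab2 (4.37) and Lyn (4.36) were higher, and the erythroid factors Gata1 (-8.42) and Tal1 (-7.61) were lower. Gab2 stood at 4.55 and 2.10 against 0.301 and 0.0 CPM, so its fitted value is not a bound. Against monocyte-like cells, where 17.0% of all genes were called, 1 was higher, Myb (1.53), and 3 were lower, Fyn (-3.81), Gata2 (-3.49) and Mitf (-1.86), with a median of -0.31 beside -0.05. Pro/pre-B-like cells had 1 higher and 6 lower than granulocyte progenitor-like cells (27.9% of all genes called, median -0.46 beside -0.02). Fyn (4.01) was higher, and Lmo2 (-1.97) and Cbl (-1.03) were lower. Cbl stood at 74.2 and 55.2 against 89.4 and 84.15 CPM, a smaller gap before scaling. Mitf, with 0 UMIs in pro/pre-B-like cells, was also called lower there. So was Ptpn11 (-0.79), at 42.8 and 34.5 against 41.9 and 46.3 CPM, which is not lower in Mouse #1 before scaling. Compared with monocyte-like cells (28.8% of all genes called, median -0.73 beside -0.11), pro/pre-B-like cells had 1 higher, Myb (2.30), and 5 lower, among them Gata2 (-4.38), Lmo2 (-1.92) and again Mitf at 0 UMIs. Against Ms4a1-led cells (22.3% of all genes called, median 0.14 beside -0.01) 3 were lower and 0 higher by edgeR, namely Sh2b3 (-1.63), Lyn (-1.57) and Ptpn6 (-1.17).

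Kitl UMIs in blood classes sat in few cells. Ms4a1-led cells had 194.0 and 128.6 CPM of Kitl, more than pro/pre-B-like cells at 28.5 and 24.2 CPM (pro/pre-B minus Ms4a1-led -2.44, SE 0.62, edgeR adjusted p = 0.0081). In the Ms4a1-led cluster 7 and 3 cells with 5 or more Kitl UMIs held 185 of 200 and 97 of 117 UMIs. Summed reticular markers were 2432 and 1075 CPM in that cluster and 381 and 340 CPM in pro/pre-B-like cells. After the cells with the highest Scrublet doublet scores were removed, the difference was -1.57 and no longer passed (edgeR adjusted p = 0.21). That removal took a set number of top-scored cells, 60 and 168 over all classes. The source of the Kitl UMIs in the Ms4a1-led cluster was not tested.

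The last comparison asked whether reticular-like cells marked by Cxcl12-iCreER differ from unmarked ones. A cell was called tdTomato-positive when its share of tdTomato UMIs exceeded the 99th percentile of blood cells of the same mouse, which gave 512 and 987 positive and 800 and 1580 negative cells. The cutoffs were 7.72 and 14.6 tdTomato UMIs per 10000, so negative cells can include marked cells below them. Kitl was 0.07 higher on the log2 scale in positive cells (SE 0.09, edgeR adjusted p = 0.95), by 0.12 in Mouse #1 and by -0.03 in Mouse #2. Il7 gave -0.02 (SE 0.07, edgeR adjusted p = 0.99). Neither difference was detectable. By edgeR, 0.0% of the 12216 genes were called, 558 had an unadjusted p below 0.05, and DESeq2 called 12. With mouse as a block, edgeR called 4.84% of genes and again neither ligand.

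Kit was called between the states in the paired fit but not in the main fit, a comparison added after its values were seen. Positive cells had 18.4 and 7.87 CPM and negative cells 33.5 and 21.5 CPM, lower in the positive cells of both mice by -0.87 and -1.45 on the log2 scale. The unpaired difference of -1.09 (SE 0.40) did not pass (edgeR adjusted p = 0.91), and with mouse as a block the difference of -1.12 passed (edgeR adjusted p = 1.4e-07). The blocked fit leaves hardly any residual spread per gene, so this p leans on spread pooled over genes and is not a measure of replication between mice. Without the cells with 5 or more Kit UMIs the differences were -0.79 and -1.17. By cluster, Kit was lower in positive cells of cluster 0 in both mice (8.33 against 25.1 CPM and 6.81 against 19.4), while cluster 3 gave 63.0 against 62.6 CPM in Mouse #1 and 15.1 against 42.3 in Mouse #2. Cluster 3 held fewer positive cells, 27.4% and 24.0%, than cluster 0, 42.1% and 44.2%. Summed erythroid markers moved with the state, at 124 CPM in positive against 528 in negative cells of Mouse #1 and 103 against 1190 CPM in Mouse #2, and their part in the Kit difference was not tested. Erythroid-like cells themselves had Kit at 7.82 and 11.3 CPM.

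**Figure D5:**
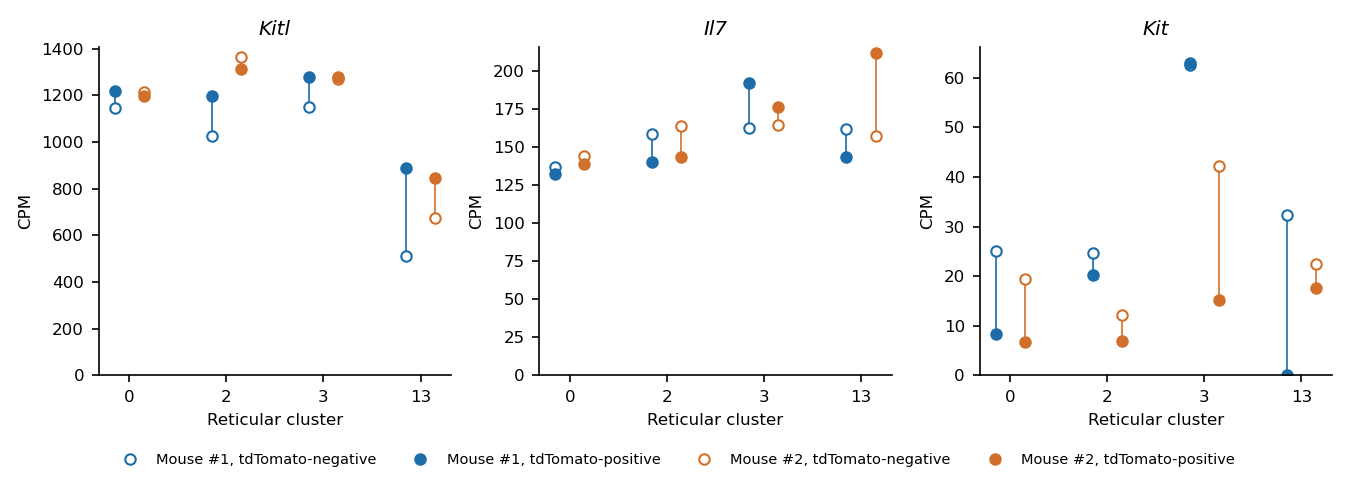
Level (CPM) of Kitl, Il7 and Kit in tdTomato-positive (filled) and tdTomato-negative (open) cells of the 4 reticular clusters, with 1 colour per mouse and a line joining the states of a mouse. Kit lies lower in positive cells of cluster 0 in both mice, 8.33 against 25.1 and 6.81 against 19.4 CPM, and Kitl is lowest in cluster 13.

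Genes with levels most like each member were sought across the 24 sums of 12 classes among 11775 genes, by Pearson's r of log2(CPM + 1), as a description of sums that share libraries. For Kitl these were Clu (r = 0.94), Vegfc (0.92) and Fbln5 (0.92), each highest in reticular-like cells. For Il7 they were Mir143hg (0.94), Wdr86 (0.94) and Sfrp2 (0.92), also highest in reticular-like cells. For Kit they were Rgcc (0.86), Ankrd28 (0.85) and Asap1 (0.76), highest in sinusoidal endothelial-like cells. For Il7r they were Blk (0.97), Tmem108 (0.96) and Tespa1 (0.96), highest in Ms4a1-led cells. Kitl with Il7 gave 0.66, Kitl with Kit 0.34 and Il7 with Il7r -0.07.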

How the data were processed

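Single-cell 3' RNA-seq libraries of 2 mice were analysed. The deposited files hold raw UMI counts per gene and barcode, which the authors made with Cell Ranger 3.0.0 on mm10 with eGFP and tdTomato sequences added, and all barcodes are listed. Cells were kept at 1000 genes or more and at most 15% mitochondrial UMIs, as the study did for this chemistry. Cells were clustered with scanpy 1.11.5 (2000 variable genes, log UMIs regressed out, 30 components, 15 neighbours, Leiden resolution 0.5), leaving out the members, the pathway lists, mitochondrial genes and transgenes. A cluster took a class name where it raised at least 3 listed markers 1.5-fold. Scrublet's own threshold called only 2 and 3 cells, so it did not work, and doublets were kept in the main analysis. Counts were summed per mouse and class, and the 12 classes with at least 20 cells in each mouse were tested with edgeR 4.0.16 (quasi-likelihood, TMM, low-count filter) with Benjamini-Hochberg adjustment. DESeq2 1.42.0 was an alternative. The edgeR test was tested on simulated data. Values of 0 UMIs were read as up to 3.

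The classes of 1 mouse come from the same animal, so mouse pairs them. Deviations from the class means correlated within a mouse by 0.0196 to 0.318 over the class comparisons and by 0.569 between tdTomato states. The mice are the replicates, and the main fit has no block. The genes named are the 4 members, the called members of each pathway list (4 with the largest change where there were more), the partner genes, and the 3 genes most like each member. The members and lists were chosen with earlier results of these data known.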

Additional observations from a re-analysis of the deposited data

How the results depend on the processing

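Over 38 results recomputed in 349 alternative values, 7 lost a call, 19 gained one, and 39 with no test moved by more than the spread. No called difference changed sign. With a mouse left out, 4 uncalled differences did, namely Kit in reticular-like minus arterial cells (-0.29 to 1.47), Kit in pro/pre-B-like minus monocyte-like cells (-0.52 to 0.0677), Kitl between tdTomato states (0.07 to -0.0338) and Il7r in granulocyte progenitor-like minus neutrophil-like cells (-2.54 to 0.0243). Unless said otherwise, the cause was not tested. Depth limits Il7 in endothelial cells, at 2 to 10 UMIs a class and mouse, and Kit in pro/pre-B-like and neutrophil-like cells, at 4 to 16. Comparing preosteoblast-like with osteoblast-like cells could not be run at all. Pro/pre-B minus Ms4a1-led cells at resolution 1.0, and comparisons with monocyte-like cells at 500 genes and 20% mitochondrial UMIs, could not be run either.

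With DESeq2, Il7 between reticular-like and preosteoblast-like cells (log2 difference 1.54, DESeq2 adjusted p = 0.090), Kitl between arterial and sinusoidal cells (1.40, 0.12) and Kit between granulocyte progenitor-like and erythroid-like cells (1.41, 0.083) lost their calls, and Il7r between granulocyte progenitor-like and neutrophil-like cells gained one (-2.78, 0.043). With no filter on low counts, calls were gained by Kitl between reticular-like and arterial cells (1.28, edgeR adjusted p = 1.2e-06), Kit between pro/pre-B-like and Ms4a1-led cells (1.88, 0.018), Il7r between granulocyte progenitor-like and neutrophil-like cells (-2.52, 0.0027), Kit (1.45, 5.2e-05) and Il7r (-2.36, 0.0020) against monocyte-like cells, and Il7r against erythroid-like cells (fitted value 5.46, 0.019, with 0 UMIs in the erythroid libraries, so not a bound). At 500 genes and 20% mitochondrial UMIs, Kitl between reticular-like and arterial cells (1.23, edgeR adjusted p = 0.013) and Il7r between granulocyte progenitor-like and neutrophil-like cells (-3.22, 0.023) gained calls. At 2000 genes and 10%, Kitl between arterial and sinusoidal cells lost its call (1.54, edgeR adjusted p = 0.12), as it did at resolution 1.0 (1.56, 0.12) and in a fit of the 2 classes alone (1.41, 0.098). Resolution 1.0 gained calls for Il7r against neutrophil-like cells (fitted value -8.26, edgeR adjusted p = 0.0044, not a bound) and Kit against monocyte-like cells (1.81, 0.043). At that resolution Il7r in granulocyte progenitor-like minus erythroid-like cells was 0.0, as where both have 0 UMIs. Kitl between reticular-like and arterial cells gained a call without the highest Scrublet scores (1.24, edgeR adjusted p = 0.041) and in a fit of the 2 classes (1.16, 0.00069), and Il7r between pro/pre-B-like and Ms4a1-led cells in such a fit (0.545, 0.027).

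Shares of cells with a UMI follow the depth they are thinned to. At 1000 UMIs and with no thinning, they were 63.5% and 97.5% for Kitl in reticular-like cells, 11.7% and 66.5% for Il7 there, 22.3% and 76.8% for Kitl and 6.01% and 40.5% for Il7 in preosteoblast-like cells, 41.2% and 93.8% for Kitl in arterial cells, 3.57% and 46.4% for Kit in sinusoidal cells, 4.59% and 46.8% for Kit in granulocyte progenitor-like cells, and 23.1% and 91.6% for Il7r in pro/pre-B-like cells, which had 34.4% at resolution 1.0. Il7 in reticular-like cells was 23.8% at 500 genes, 24.3% at 2000 genes, 23.9% at resolution 1.0 and 23.8% without the highest Scrublet scores, shifts that exceed the narrow spread of the mice.

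With either mouse left out there is no residual spread. Gaps from the edgeR values also include the TMM scaling, which is absent here. The values are CPM ratios of the remaining mouse and carry no test. They ran from 1.89 to 2.27 for Kitl in reticular-like minus preosteoblast-like cells, 0.92 to 1.22 for Kitl minus arterial cells, 4.51 to 6.77 for Il7 minus arterial cells, 1.93 to 3.94 for Kitl and 4.004 to 4.47 for Il7 minus sinusoidal cells and 0.71 to 3.02 for Kitl and -2.30 to -0.50 for Il7 between the endothelial classes. For Kit they ran from -1.86 to -0.96 in pro/pre-B-like minus granulocyte progenitor-like cells, and in granulocyte progenitor-like cells from 2.24 to 3.76 over neutrophil-like, 0.0577 to 1.93 over monocyte-like and 1.25 to 2.14 over erythroid-like cells. For Il7r they ran from 0.38 to 0.45 between the B cell-like clusters, -2.56 to 0.0243 against neutrophil-like and -2.32 to -2.25 against monocyte-like cells, with 1.66 as the value against erythroid-like cells. Il7 between tdTomato states ran from -0.0803 to -0.0283.

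With mouse as a replicate block, the Kit difference between tdTomato states was -1.12 (edgeR adjusted p = 1.4e-07), and with no filter on low counts it was -1.09 (edgeR adjusted p = 0.00016), beside 0.91 in the main fit. The blocked p leans on spread pooled over genes. The block changed no other call among the results given here. Kit between arterial and sinusoidal cells gained a call with no filter (-1.57, edgeR adjusted p = 2.5e-05), at resolution 1.0 (-1.68, 0.049) and with DESeq2 (-1.84, 0.049). The Kit comparisons outside blood, and Kitl between the B cell-like clusters, were added after seeing the data.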
